A study of Caenorhabditis elegans with 2 samples.

Results

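A set of 10 GATA factor genes that act in endoderm and epidermis of the nematode Caenorhabditis elegans was examined. Binding of the zinc finger protein PQM-1 was read by chromatin immunoprecipitation and sequencing (ChIP-seq). The genes were taken by name from the Ensembl annotation of WBcel235 and are 10 of 19973 protein-coding genes on the 6 nuclear chromosomes. They comprise 7 endoderm genes, med-1, med-2, end-1, end-3, elt-2, elt-4 and elt-7, and 3 epidermal genes, elt-1, elt-3 and elt-6. The study holds 1 group with 2 biological replicates: hermaphrodite late embryos of strain OP201, of genotype unc-119(tm4063) III with the transgene wgIs201, collected 2 h after synchronization by egg bleaching. This transgenic line carries PQM-1 with GFP and FLAG at its C-terminus, and the description of the samples gives an anti-GFP antibody for the precipitation, while their antibody field reads pqm-1. Whole embryos were used, so strong binding in few cells and weak binding in many cannot be told apart, and peak lists hold no RNA against which the tissue of each gene could be checked. With no second group, no comparison of conditions was possible, and because genes are not replicates no p-value is given for them.

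GATA factors typically bind DNA through a zinc finger that reads the sequence GATA, though not every member need do so. In the worm endoderm they form a cascade: the maternal factor SKN-1 turns on med-1 and med-2, these turn on end-1 and end-3 in the founder cell of the gut, and END-1 and END-3 turn on elt-7 and elt-2, after which ELT-2 keeps itself and the intestinal genes active for life. In the epidermis ELT-1 specifies the fate, ELT-3 acts in the differentiating hypodermis, and elt-6 and its neighbour egl-18 act in the seam cells. PQM-1 is associated with the DAF-16 associated element TGATAAG, which contains a GATA sequence.

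The stretches on which the results turn were read on the plus strand of ce11, the strand of all 10 genes, from the RefSeq genome of WBcel235. Matches to the GATA-type elements are in capitals: the DAF-16 associated element TGATAAG, and the general GATA element, searched as AGATAA or AGATAG and as TGATAA or TGATAG. Both strands were searched, so a match on the minus strand reads, for example, as CTTATCA for the first. Each TGATAAG is also a TGATAA. The proximal stretch of elt-2 (chrX:10480598-10480897) holds its strongest region's summit, 1 TGATAAG and a pair of general elements. The distal stretch of elt-2 (chrX:10479544-10479743) holds 5 general elements. Those of elt-7 (chrV:4770737-4770937), across a coding exon and an intron, and of elt-4 (chrX:10475105-10475305), upstream, show the other late endoderm genes. The stretches of elt-3 (chrX:13937431-13937730) and elt-1 (chrIV:9615687-9615887) lie in introns, hold 3 TGATAAG and 5 general elements in turn, and show element-rich epidermal sites with weak regions.
elt-2 proximal: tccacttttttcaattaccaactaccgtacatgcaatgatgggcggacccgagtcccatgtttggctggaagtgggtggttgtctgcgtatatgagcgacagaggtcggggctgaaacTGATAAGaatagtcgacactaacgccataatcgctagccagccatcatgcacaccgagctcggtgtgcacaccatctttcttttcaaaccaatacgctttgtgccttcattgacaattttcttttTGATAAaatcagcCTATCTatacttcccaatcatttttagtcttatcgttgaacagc
elt-2 distal: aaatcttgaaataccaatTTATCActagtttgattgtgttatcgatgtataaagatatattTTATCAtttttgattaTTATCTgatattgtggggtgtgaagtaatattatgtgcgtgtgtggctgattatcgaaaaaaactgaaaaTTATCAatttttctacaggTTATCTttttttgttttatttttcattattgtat
elt-7: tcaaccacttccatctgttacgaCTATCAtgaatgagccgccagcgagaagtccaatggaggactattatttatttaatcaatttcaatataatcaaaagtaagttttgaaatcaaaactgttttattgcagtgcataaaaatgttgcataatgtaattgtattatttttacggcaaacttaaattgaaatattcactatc
elt-4: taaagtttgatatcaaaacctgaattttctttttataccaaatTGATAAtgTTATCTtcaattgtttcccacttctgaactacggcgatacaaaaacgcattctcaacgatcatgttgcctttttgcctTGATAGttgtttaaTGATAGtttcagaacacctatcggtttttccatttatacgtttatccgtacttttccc
elt-3: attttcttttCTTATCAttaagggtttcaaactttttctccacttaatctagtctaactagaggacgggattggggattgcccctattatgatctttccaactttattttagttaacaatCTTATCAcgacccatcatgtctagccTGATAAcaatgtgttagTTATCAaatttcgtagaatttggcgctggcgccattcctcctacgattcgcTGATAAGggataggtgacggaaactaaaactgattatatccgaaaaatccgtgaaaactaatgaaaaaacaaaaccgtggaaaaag
elt-1: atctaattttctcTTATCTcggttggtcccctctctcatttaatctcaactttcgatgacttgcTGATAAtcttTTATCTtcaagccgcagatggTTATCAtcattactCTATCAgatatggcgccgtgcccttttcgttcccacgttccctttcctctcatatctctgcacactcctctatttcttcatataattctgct

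A region was assigned to a gene when its summit lay in the gene body or within 2000 bp upstream of any transcript start. The pooled list of peaks and background holds 27694 regions, that of replicate 1 holds 28996 and that of replicate 2 holds 23228. Most of these are weak: 1241, 999 and 1305 of them have a q-value, the authors' false discovery rate, of at most 0.01. The depth of the libraries is unknown. Signal is the authors' own peak value and is compared only within a list, where rank 1 is the strongest.

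In these late embryos elt-2 was the only one of the 10 GATA factor genes with a PQM-1 region at a q-value of at most 0.01, upstream of its start and in both replicates. A pooled region of any strength fell in 8 of the 10 loci, but this was so for 65.8% of all protein-coding genes. In the replicates the count was 7 of 10 in replicate 1, against 68.7% of all genes, and 7 of 10 in replicate 2, against 62.1%. At a q-value of at most 0.01, 1 of 10 members, elt-2, had a region in the pooled list, where 7.21% of all genes had one. The same gene was alone in replicate 1 (background 5.62%) and in replicate 2 (background 7.49%). At a q-value of at most 0.05 the pooled list still gave elt-2 alone, against 12.5% of genes. The authors' reproducible list, which holds the 669 strongest pooled regions, had 1 region at these genes, against 4.2% of all genes with at least 1. A share of 1 in 10 is near each of these backgrounds, so the family as a whole does not stand out by its count. The lowest q-value anywhere in the pooled list was 0.0019, so at 0.001 there were 0 members and 0.0% of genes.

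**Figure D1:**
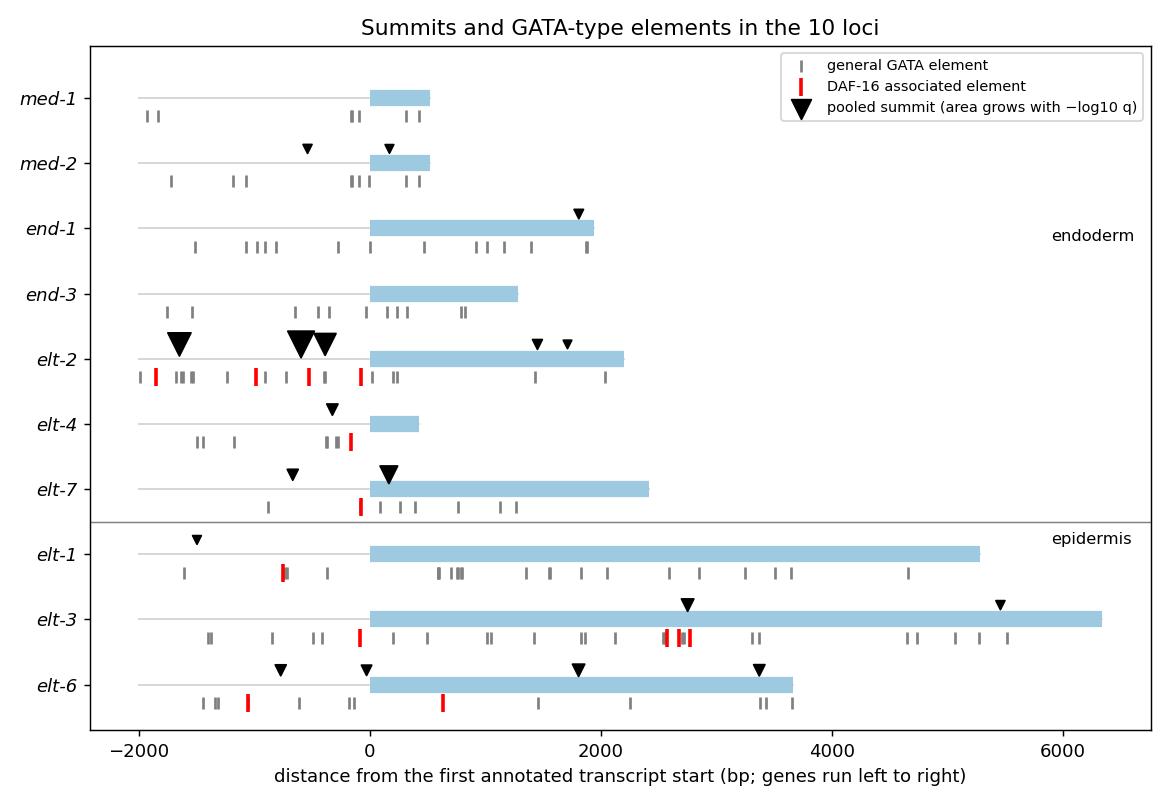
Summits of pooled regions (triangles, area growing with −log10 q) and GATA-type elements (red, DAF-16 associated element; grey, general GATA element) along the 10 loci, in bp from the first annotated transcript start, with gene bodies in blue. The 3 large triangles lie upstream of elt-2, the next largest in elt-7, and med-1 and end-3 have none.

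The 18 pooled regions had a median signal of 29.6 and a median rank of 11466.5, beside 27.5 and 13847.5 for all pooled regions. Of the 18, 7 had their summit inside a region of each replicate (38.9%, beside 39.8% of all pooled regions), 5 of replicate 1 alone, 5 of replicate 2 alone and 1 of neither. The 2 overlapping regions upstream of elt-2 are both among the 7 and lie in the same region of replicate 2. At the gene level 4 of the 10 members, elt-2, elt-7, elt-3 and elt-6, had a pooled region found in both replicates, against 38.2% of all genes. The order of the genes by their strongest pooled region was elt-2 (rank 652), elt-7 (3579), elt-3 (8081), elt-6 (8268), elt-4 (10630), end-1 (18436), med-2 (21760) and elt-1 (24897). Only the lead of elt-2 was common to all 3 lists: elt-7 came next in replicate 2 and in the pool, and elt-6 in replicate 1.

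**Figure D2:**
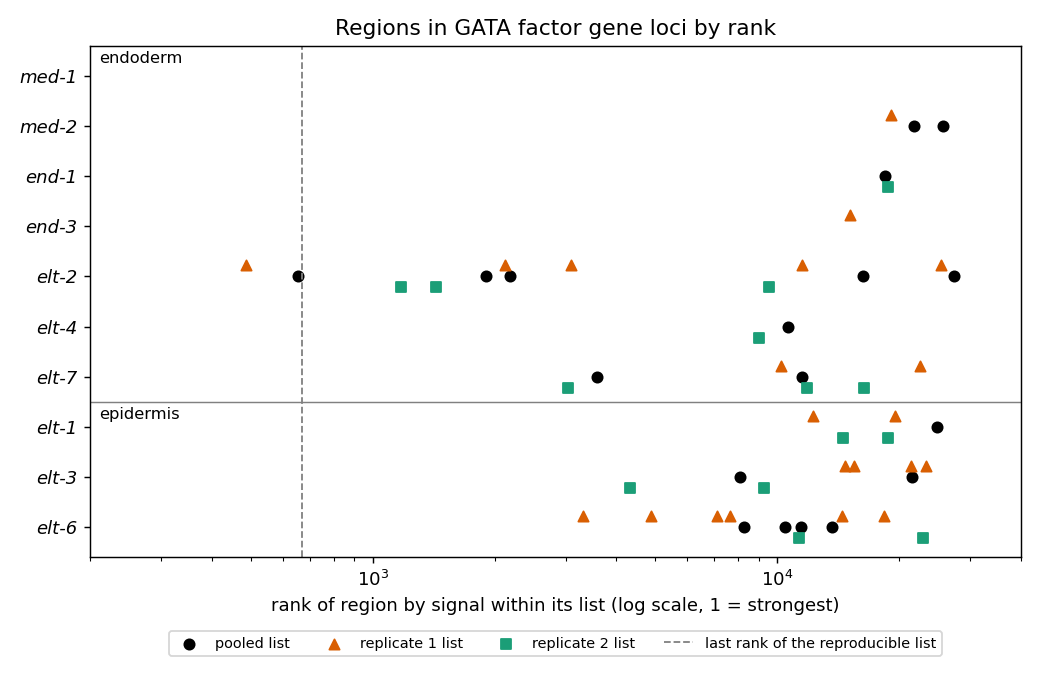
Rank of each region by signal within its list (log axis, 1 = strongest) for the 10 genes, with the pooled list as circles, replicate 1 as triangles and replicate 2 as squares; the dashed line is rank 669. Of these genes elt-2 alone has regions above rank 669, at 652 for the pool and 486 for replicate 1, while ranks of the other endoderm and of the epidermal genes overlap.

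The gene elt-2 (WBGene00001250, X from 10481240 to 10483441) encodes the GATA factor that maintains the intestine. Its strongest region (X from 10480432 to 10480861) lay between genes with its summit 593 bp upstream of the transcript start, and had a pooled signal of 82.8 (rank 652, q = 0.0069). The last region of the reproducible list had 82.0, so elt-2 was just inside it. The reproducible list in build ce10 is longer and was not analysed here, so this edge holds for the ce11 list. By q-value in place of signal it ranked 944 in the pooled list. In replicate 1 the region had a signal of 42.5, rank 486 and q = 0.0031, with its summit 596 bp upstream. In replicate 2 it had 39.5, rank 1171 and q = 0.0081, with its summit 498 bp upstream. Both replicates thus placed it below a q-value of 0.01, within the top 1.68% of the regions of replicate 1 and the top 5.04% of those of replicate 2. Across all protein-coding genes 4.11% had a stronger pooled region in their window, 2.87% in replicate 1 and 6.79% in replicate 2.

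More than this region was raised at elt-2. An overlapping region lay closer to the gene, with its summit 385 bp upstream, a signal of 53.2, rank 2181 and q = 0.041 in the pooled list. Replicate 1 had it as a region of its own (388 bp upstream, signal 26.7, rank 2125, q = 0.051). In replicate 2 a single summit between both, at 498 bp, stood in its place, so replicate 2 did not resolve the pair. A separate distal region had its summit 1646 bp upstream, a pooled signal of 56.1, rank 1908 and q = 0.026. Here the replicates differed: replicate 2 gave a signal of 36.9, rank 1432 and q = 0.012 at 1597 bp, and replicate 1 gave 24.1, rank 3086 and q = 0.109 at 1775 bp, with a weak second region at 1536 bp (rank 25448). Within the gene body, 1453 and 1713 bp downstream of the start, were 2 pooled regions of rank 16356 and 27340 (q = 0.80 and 0.96), which are background by the authors' q-value.

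Beyond the 2000 bp window a further region stood 3451 bp upstream of elt-2, with a pooled signal of 61.6, rank 1449 and q = 0.012. In replicate 2 it had a signal of 39.2, rank 1189 and q = 0.0080, and in replicate 1 a signal of 23.5, rank 3346 and q = 0.127. Its nearest annotated start was that of C39B10.7, at 916 bp. It held no TGATAAG and 1 general GATA element within 100 bp of the summit. The upstream sequence of elt-2 thus held regions in 3 places in the pooled list and in the list of each replicate.

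**Figure D3:**
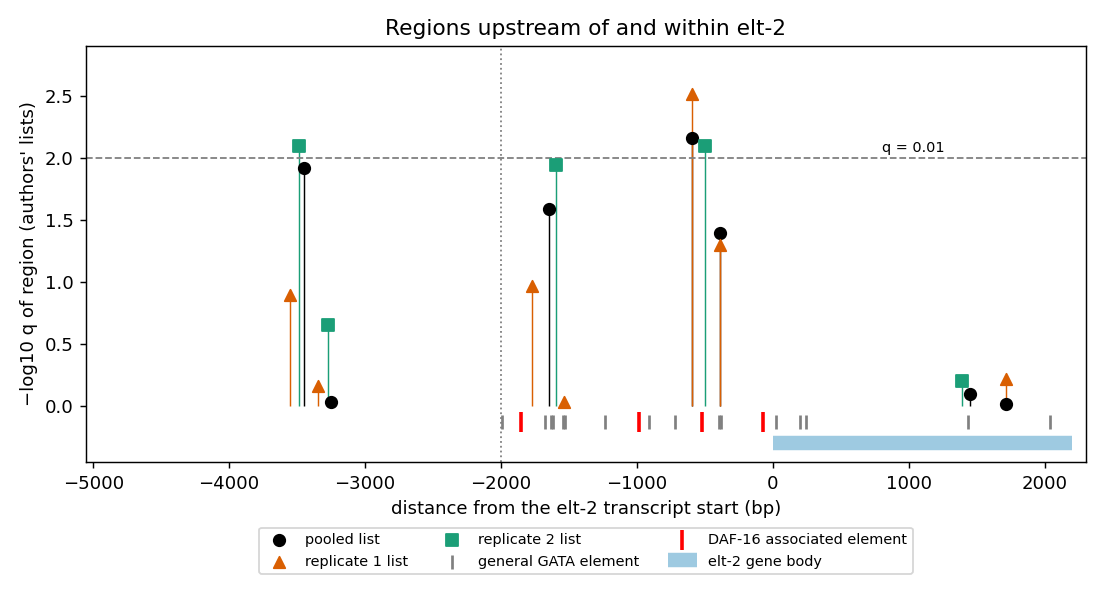
The −log10 q of each region (authors' lists) against distance in bp from the elt-2 transcript start, for the pooled list and both replicates, with GATA-type elements drawn for the window from 2000 bp upstream (dotted line) to the gene's end. The near region crosses q = 0.01 (dashed) in all 3 lists, and the farthest does so in replicate 2 alone.

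The elements of elt-2 can be read in the proximal and distal stretches. Its TGATAAG on X from 10480716 to 10480722 lay 72 bp from the pooled summit, 75 bp from that of replicate 1 and 23 bp from that of replicate 2. It was on the gene's side of the pooled and replicate 1 summits and on the far side of that of replicate 2. The overlapping nearer region had its summit 1.5 bp from the centre of a general GATA element on the minus strand (10480854 to 10480859), with a second on the plus strand beside it. The distal region held 3 general elements within 100 bp of the pooled summit, the nearest with its centre 13.5 bp away, and 5 within 100 bp of the summit of replicate 2. A further TGATAAG from 10479386 to 10479392 lay 205 bp from the pooled distal summit and 76 bp from that of replicate 1. The other TGATAAG of the locus, centred 983 and 71 bp upstream of the start, lay 390 and 314 bp from the nearest pooled summit. In all 4 of 5 pooled elt-2 regions held a general element within 100 bp and 1 held TGATAAG.

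The gene elt-7 (WBGene00015981, V from 4770670 to 4773086) encodes a GATA factor that works beside ELT-2 in the gut. Its strongest pooled region had a signal of 45.1, rank 3579 and q = 0.15, with its summit in an intron 167 bp downstream of the first start. Replicate 2 had it at a signal of 28.7, rank 3040 and q = 0.133, and replicate 1 at 16.4, rank 10196 and q = 0.55. Among all genes 17.2% had a stronger pooled region, 15.3% in replicate 2 and 36.9% in replicate 1. The second region, 665 bp upstream, had a pooled signal of 29.6 and rank 11495 (q = 0.66), and its nearest start was that of C18G1.9. Both pooled regions also lay in the window of C18G1.9. The single TGATAAG of the locus was 243 bp from the nearest pooled summit.

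The gene elt-4 (WBGene00001252, X from 10475527 to 10475959), a short GATA gene a few kilobases upstream of elt-2, had 1 pooled region 322 bp upstream of a start, with a signal of 30.5, rank 10630 and q = 0.63. This region also lay in the window of C39B10.7. Replicate 2 had a region at the same summit with a signal of 20.1, rank 9009 and q = 0.599, and replicate 1 had none. The stretch printed for elt-4 shows 4 general elements within 100 bp of this summit, as many as at any pooled summit of the 10 loci. Its TGATAAG lay 165 bp from the summit.

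The genes at the head of the cascade had regions of background strength or none. Weak regions were not particular to them. The strongest pooled regions of elt-4, elt-3, elt-6 and elt-1 had q-values of 0.63, 0.51, 0.52 and 0.93. For end-1 (WBGene00001310, V from 13985128 to 13987074) the pooled region lay in a coding exon 1811 bp downstream of the start, with a signal of 24.2, rank 18436 and q = 0.845; replicate 2 had it at rank 18843 and replicate 1 did not. The paralog end-3 (WBGene00001311, V from 14014695 to 14015980) had no pooled region and 1 in replicate 1, 32 bp downstream of the start, with a signal of 14.0, rank 15166 and q = 0.72. Both loci hold general GATA elements, 14 and 11, and no TGATAAG.

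No region of any of the 4 lists was found at med-1 (WBGene00003180, X from 12430609 to 12431133). At med-2 (WBGene00003181, III from 6884503 to 6885027) 2 pooled regions had signals of 22.3 and 20.4 (ranks 21760 and 25680), 537 bp upstream and 172 bp downstream of the start, and replicate 1 alone had the upstream one, at a signal of 12.6 and rank 19139. These 2 genes are near copies: their bodies, 525 bp each, are identical at 97.5% of positions, and the 100 bp upstream at 94.0%. Of the 36-base words of the gene body 49.8% occur once in the genome in either gene, and of those of the window 88.9%. How reads that match both copies were treated is not given in the sources used here, so signal within the med-1 and med-2 bodies is uncertain. The windows of the other members consisted of at least 97.1% unique words, and that of elt-2 of unique words throughout.

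The epidermal genes had regions in the pooled list and in the list of each replicate, none with a q-value of at most 0.05. For elt-3 (WBGene00001251, X from 13934874 to 13941216) the strongest pooled region lay in an intron 2753 bp downstream of the first start, with a signal of 33.7, rank 8081 and q = 0.51. Replicate 1 gave a signal of 14.2 and rank 14714 (q = 0.70) at 2756 bp, and replicate 2 gave 25.7 and rank 4325 (q = 0.25) at 2879 bp. The gene has 6 annotated starts. These summits lay 1116 bp (pool), 1113 bp (replicate 1) and 990 bp (replicate 2) upstream of the nearest start. The elt-3 stretch shows 3 TGATAAG, of which 2 lay 21 and 73 bp from the pooled summit; within 100 bp of the summit of replicate 2 there was no element. Replicate 1 held 4 regions in this locus and replicate 2 held 2. A second pooled region, in a coding exon 5460 bp downstream of the first start and 608 bp downstream of the nearest, had rank 21615.

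For elt-6 (WBGene00001253, IV from 1917977 to 1921643) the pooled list held 4 regions with signals of 27.6 to 33.4, ranks 8268 to 13655 and q-values of 0.52 to 0.73. In replicate 1 the strongest of 6 regions lay 62 bp upstream of the start, with a signal of 23.6, rank 3313 and q = 0.125, so that 15.8% of genes had a stronger one. In replicate 2 the strongest of 2 had a signal of 18.5, rank 11316 and q = 0.698, and none lay at that place. The pooled region 769 bp upstream of elt-6 is in a coding exon of egl-18, the seam cell GATA gene beside it, and cannot be assigned to either. Just beyond the window, 2246 bp upstream of elt-6, a pooled region had a signal of 44.7, rank 3679 and q = 0.16, stronger than any of the 4 within it. Its summit lay between an annotated start of egl-18 and the egl-18 coding exon named above, so it too cannot be assigned to either gene.

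The gene elt-1 (WBGene00001249, IV from 9614995 to 9620280), the factor that specifies epidermis, had 1 pooled region, 1494 bp upstream, the lowest in rank among the strongest regions of the 8 genes that had any, with a signal of 20.8, rank 24897 and q = 0.93. The strongest region of replicate 1 lay elsewhere, in an intron, with a signal of 15.3, rank 12254 and q = 0.63. Its summit was 203 bp upstream of the nearest of the 6 annotated starts of elt-1. The strongest region of replicate 2 was 1841 bp upstream, with a signal of 16.8, rank 14530 and q = 0.81. The intron region held 5 general elements, printed above, and neither the pooled list nor replicate 2 had it. Of 24 general elements in the elt-1 locus 0 lay within 100 bp of a pooled summit.

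Set side by side, the endoderm genes had 11 pooled regions in 23.3 kb of windows (0.471 per kb) and the epidermal genes 7 in 21.3 kb (0.329 per kb), a difference of 0.143 per kb. In replicate 2 the densities were 0.343 and 0.282, a difference of 0.0611, and in replicate 1 they were 0.386 and 0.564, a difference of -0.178. The SD of the difference between the replicates was 0.169 (n = 2). It is not the spread of the pooled difference, which comes from a separate list and lay above the values of both replicates. The difference changed sign between the replicates, so the density did not separate the groups in the same direction in both. Of the 11 pooled endoderm regions 5 lay in the elt-2 window alone, at 1.19 per kb. The median gene of the 10 members had 0.332 pooled regions per kb of window, and the median of all genes was 0.256. Endoderm windows were shorter, with a median of 3.29 kb, than epidermal ones, with 7.29 kb, and a pooled region of any kind was found at 5 of 7 endoderm genes and 3 of 3 epidermal genes. The median of the strongest pooled rank was 18436 for endoderm genes, counting those with no region as last, and 8268 for epidermal genes, beside 16054 for all genes. In replicate 1 these medians were 19139 for endoderm, 12254 for epidermal and 16312 for all genes. In replicate 2 they were 18843, 11316 and 15598. The ranks were not adjusted for the longer epidermal windows. The median signal of the regions was 29.6 in endoderm and 29.7 in epidermal loci. The highest pooled signal was 82.8 in endoderm loci, at elt-2, and 33.7 in epidermal loci, at elt-3. The next endoderm gene, elt-7, had 45.1 (rank 3579). The seam cell GATA gene egl-18, which is not among the 10 members, had 45.3 (rank 3537, q = 0.148).

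GATA-type elements were counted at the summits of these genes and at all pooled summits. Of the 18 pooled regions 10 (55.6%) held it within 100 bp of the summit, beside 34.6% of all 27694 windows of the same 201 bp, and 2 (11.1%) held TGATAAG, beside 6.03%. Windows centred 500 bp to each side of the members' summits held the general element in 41.7% and TGATAAG in 5.56% of 36 cases, beside 34.9% and 3.39% of all flanks. Without the elt-2 regions, a split chosen after the values were seen, 6 of 13 summits (46.2%) held the general element and 1 held TGATAAG. By group, 7 of 11 endoderm and 3 of 7 epidermal summits held the general element, and 1 in each group TGATAAG. Of the 7 endoderm summits with the general element 4 were at elt-2, which had 5 regions. At the gene level 6 of 10 members had a region with the general element, against 35.8% of all genes, and 2 of 10, elt-2 and elt-3, one with TGATAAG, against 8.0%. These regions share loci, so no test was made.

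The order of the genes by density of elements differed from their order by rank of the strongest region. The general element occurred 4.76 times per kb in the elt-2 window, which 1.64% of protein-coding genes exceeded, and 2.04 times per kb in that of elt-7, the second gene by pooled rank, which 65.0% exceeded. The other members had 2.47 to 3.56 per kb, beside a median of 2.39 over all genes. TGATAAG occurred 4 times in each of the elt-2 and elt-3 windows, in 2 places in elt-6, once each in elt-4, elt-7 and elt-1, and not in med-1, med-2, end-1 or end-3; 56.0% of all genes have at least 1 in their window. Of these 13 sites 3 lay within 100 bp of a pooled summit, 1 at elt-2 and 2 at elt-3.

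Companion genes of the same pathways were read with the same window, and their counts stand beside the 7.21% of all genes with a pooled region at a q-value of at most 0.01. Of 10 genes of mesendoderm specification 2 had one: wrm-1, a beta-catenin of the Wnt signal that directs endoderm (rank 262, signal 115.0, 792 bp upstream, with TGATAAG within 100 bp of the summit), and skn-1, the activator of the med genes (rank 1164, 66.6), whose region lay nearer to the start of clec-178. The skn-1 summit had neither TGATAAG nor a general element within 100 bp. Of 9 matched intestinal effector genes 2 did: act-5, the actin of gut microvilli (rank 178, signal 130.7, nearest start that of shpk-1), and asp-1, an aspartyl protease gene (rank 677, 81.6), each with 2 TGATAAG near the summit. None of 10 epidermal factor genes did. Of 10 genes listed as epidermal effectors dlg-1 (rank 242, signal 117.5) and ajm-1 (rank 1225, 65.3) did, and both encode proteins of the apical junction. The list was made by name, and peak lists cannot show whether these 2 genes act in the epidermis alone. The dlg-1 region held 1 TGATAAG within 100 bp of its summit, and that of ajm-1 held a general element but no TGATAAG. Of 3 other genes with GATA-type zinc fingers 1 did, egl-27 (rank 277, signal 113.4), a chromatin factor, with 4 general elements near its summit. The called genes held unlike numbers of pooled regions: 2 (wrm-1), 12 (skn-1), 4 (act-5), 3 (asp-1), 5 (dlg-1), 15 (ajm-1) and 13 (egl-27). A gene with more regions has more chances of a call, and the 7.21% was not adjusted for this. For elt-2 the genes closest in rank of the strongest pooled region were C47E8.11 and Y4C6B.3 (ranks 650 and 651) above it and fbxb-72 and apa-2 (653 and 654) below it, the rank being the only likeness measured.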

How the data were processed

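The authors deposited narrowPeak lists in builds ce10 and ce11; the ce11 lists were used, and ce10 lists, control libraries and signal tracks were not analysed here. Their names and the deposited README give lists of peaks and background for each replicate and for the pool, derived from the alignments of both replicates and a further file, and a list thresholded by irreproducible discovery rate, called the reproducible list. The authors' signal (a score of peak strength) and −log10 q-value were taken as deposited, by the narrowPeak layout, with q read as a false discovery rate. Aligner, peak caller, reproducibility threshold and depth: not given in the sources used here.

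Positions were read against Ensembl release 115 and the RefSeq genome of WBcel235, which is ce11; 0 regions lay beyond a chromosome end. Python 3.11.15, numpy 2.4.6, pandas 2.3.3 and matplotlib 3.10.9 were used, and window and element searches were tested on simulated data. Members, lists and tests were chosen with earlier results of these data known. The named genes are the members, companion genes at a q-value of at most 0.01, neighbours sharing a region and the genes adjacent to elt-2 in rank. A pooled region counted as found in a replicate when its summit lay inside that replicate's region. Alternatives were other windows, assignments, thresholds, overlaps, ranking columns and each replicate alone. In the companion lists 1 name, opt-2, matched no gene.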

Additional observations from a re-analysis of the deposited data

How the results depend on the processing

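The call of elt-2 alone at a q-value of at most 0.01, and its place in the reproducible list, held with 1000 or 5000 bp upstream, with overlap in place of the summit, with nearest regions only and, for the q-value, in each replicate's list; at 0.001 the count was 0, since no pooled region reaches it. The elt-2 summit lay 593 bp upstream with elt-2 as its nearest start. The window, overlap and nearest-region settings therefore could not lose it. Of these, only 5000 bp and overlap could have added a member. The rank of elt-2 was 486 to 1171 in lists of 1 replicate. The density difference between endoderm and epidermal genes reversed in replicate 1, and was -0.178 to 0.0611 per kb in lists of 1 replicate; in the pooled list it was 0.284 with 1000 bp and 0.0429 with 5000 bp upstream, against 0.143 with 2000 bp. Of 18 pooled regions, 1 held TGATAAG within 50 bp of the summit, 5 within 200 bp and 6 in the whole region. Within 100 bp it was 5 of 21 in replicate 1, 1 of 14 in replicate 2 and 1 of 13 pooled regions without elt-2. The general element was held by 6 of 18 within 50 bp, 14 within 200 bp and 14 in the whole region. Within 100 bp it was 14 of 21 in replicate 1, 8 of 14 in replicate 2 and 6 of 13 without elt-2. Leaving out elt-2 was chosen after seeing the data. Wider windows hold more elements in any region, and shares of all regions are not given here for the other window sizes. These counts therefore do not show whether the members differ from background. No paired analysis was possible because there is 1 group. Depth is unknown, so weak regions cannot be told from background by counts.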

Other observations

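The proximal stretch of elt-2 contains a perfect inverted repeat of 22 bases with no spacer, tgcacaccgagctcggtgtgca (chrX:10480763-10480784), with its centre 31.5 bp from the summit of the strongest elt-2 region in replicate 2, 126.5 bp from that in the pooled list and 129.5 bp from that in replicate 1. The overlapping second regions of the pooled list and of replicate 1 have summits nearer to it. A repeat at least as long was present in 72 of 27694 pooled windows of 299 bp (0.26%), in 2 of 669 windows of the reproducible list (0.299%) and in 0.419% of windows 500 bp from the pooled summits towards higher coordinates. It was noticed while the printed sequence was read, and such repeats were not more frequent at summits than beside them.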
